A study of Homo sapiens with 6 samples.

Results

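NADPH is the reduced cofactor that cells spend on keeping glutathione and thioredoxin reduced and on building lipids and nucleotides. The 9 genes described here belong to pathways that make it, or reduce quinones and carbonyls with it or with NADH. They are PGD, TKT and TALDO1 of the pentose phosphate pathway, ME1 and IDH1, the cytosolic malic enzyme and isocitrate dehydrogenase, NQO1, the quinone reductase, and AKR1B1, AKR1B10 and AKR1C1, aldo-keto reductases. The members were taken by symbol, through GENCODE, from the 58735 rows of the count table, and all 9 had a row. RNA was sequenced from RKO cells, an established line grown out of a human colorectal carcinoma, after EZA (3 replicates) or after DMSO, the solvent control (3 replicates). EZA appears in the labels only by this abbreviation, with no dose or duration among the sources used here. It was asked which transcripts EZA-treated and DMSO-treated cells hold at different levels.

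As background, the oxidative branch of the pentose phosphate pathway makes NADPH, in its last step at PGD. Its non-oxidative branch, with TKT and TALDO1, returns pentoses to glycolysis. ME1 and IDH1 make NADPH in the cytosol from malate and from isocitrate. NQO1 reduces quinones in a single step that bypasses the reactive semiquinone, and aldo-keto reductases turn reactive aldehydes and ketones into alcohols. In human cells most of these genes are described as targets of NRF2, a transcription factor that binds the antioxidant response element (ARE) when oxidants or electrophiles are present.

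Of the 9 members 5 had enough counts to be tested, and 3 of these 5 were higher in EZA. NQO1 was 3.66-fold higher, TALDO1 1.74-fold and PGD 1.47-fold. TKT and IDH1 did not pass the test, and ME1, AKR1B1, AKR1B10 and AKR1C1 had between 0 and 12 counts in all 6 libraries together. A gene was called at a Benjamini-Hochberg adjusted p below 0.05 in edgeR's quasi-likelihood test over 13503 genes, where 17.7% of genes were called, 9.89% as higher and 7.82% as lower in EZA. Scaled on total counts without TMM, the whole table split into 1059 genes higher and 1270 lower, against 1336 and 1056 with TMM scaling, and the same number of members, 3, was called. The study's own threshold asks for a log2 fold change of 1 or more in size and an unadjusted p below 0.05. NQO1 alone of the members passed it, where 5.73% of genes tested passed, 3.77% as higher and 1.96% as lower. No member was called lower in edgeR, DESeq2 or limma-voom, and 0 were lower at an unadjusted p below 0.05.

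The ARE is recognised by a short core, TGACNNNGC. It was searched on both strands in the 1000 bases before the RefSeq start of 8 members (all but AKR1B10), and 5 of them held it: PGD, TALDO1, ME1, IDH1 and NQO1. TKT, AKR1B1 and AKR1C1 had no match in this window. The same window held the core in 31.8% of 27305 RefSeq promoters. The RefSeq start can differ from the gene end in GENCODE. For PGD (RefSeq start 10399064) and IDH1 (208254458) the core lies before the RefSeq start but inside the gene span given below. A longer form, with TCA as the spacer of the core and an A after it, was present before NQO1 and TALDO1 and in 0.472% of all promoters. Nothing shows that this form was chosen independently of the NQO1 sequence. The 0.472% is therefore no measure of how unusual the match in NQO1 is. The related enzymes PGLS and TXNRD1, described below and both higher in EZA, were searched too. PGLS had no match to the core, and TXNRD1 had the core without the longer form. The sequences are shown because the core stood before members that rose, before a member that did not pass the test and before one with no counts; they are from hg38, 5′ to 3′ on the strand of the gene, with the core in capitals (in PGD it reads on the opposite strand).
NQO1 (chr16:69726992-69727030, minus strand, core at -455 from the start): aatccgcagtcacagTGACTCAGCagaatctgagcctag
TALDO1 (chr11:746496-746534, plus strand, core at -953): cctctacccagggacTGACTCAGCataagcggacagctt
PGD (chr1:10398848-10398886, plus strand, core at -201): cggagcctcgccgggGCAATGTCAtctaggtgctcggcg
IDH1 (chr2:208255191-208255229, minus strand, core at -756): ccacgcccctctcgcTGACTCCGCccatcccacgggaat
ME1 (chr6:83431165-83431203, minus strand, core at -137): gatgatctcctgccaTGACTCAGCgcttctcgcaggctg

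Libraries held 14070611 to 18840954 counts. EZA replicate 3 stood apart: mitochondrially encoded genes took 0.203% of its counts, against 3.68% to 5.02% in the other 5 libraries. Fold changes also followed GC content, with a median log2 fold change of -0.20 in protein-coding genes of 40% to 45% GC, 0.08 at 50% to 55%, 0.20 at 55% to 60% and 0.44 above 60%. Among markers of the labelled cell type, KRT8, KRT18, EPCAM and CDX2 were detected, while CDH1, CDX1 and LGR5 had 0 counts and KRT19, VIL1 and KRT20 at most 4. Of 4 leukocyte markers all were at 0 in each library. The summed level of 4 fibroblast markers was at most 0.353 CPM (counts scaled to a common library size with TMM) in EZA and 0.320 CPM in DMSO, and that of 3 endothelial markers at most 0.707 CPM in EZA and 0.0639 CPM in DMSO. In these bulk samples fewer cells with a transcript and less of it per cell cannot be told apart.

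Across genes, levels are given as the deposited FPKM, which are per gene length. In EZA libraries TALDO1 averaged 150.5 ± 21.4 FPKM (SD, n = 3), PGD 134 ± 5.21, NQO1 116 ± 16.9, TKT 47.8 ± 20.2 and IDH1 21.2 ± 5.12. In DMSO libraries PGD averaged 89.96 ± 5.85 FPKM (SD, n = 3), TALDO1 85.6 ± 1.59, TKT 44.2 ± 2.10, NQO1 31.4 ± 1.05 and IDH1 22.6 ± 2.38. In EZA the ranges of TALDO1, PGD and NQO1 overlapped one another, as did those of TKT and IDH1; in DMSO those of PGD and TALDO1 overlapped and the ranges below them did not. Among 11430 protein-coding genes tested, NQO1 stood at percentile 97.2 of mean FPKM in EZA and at percentile 88.4 in DMSO.

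NQO1 (ENSG00000181019, chromosome 16, 69706996 to 69726668, GRCh38, minus strand) had 375, 435 and 333 CPM in EZA replicates 1 to 3, against 108, 100.04 and 105 CPM in DMSO replicates 1 to 3. The lowest EZA library lay above every DMSO library by a wide margin. EZA over DMSO, the log2 fold change came to 1.87 ± 0.14 (SE), with an edgeR adjusted p of 2.24e-04. NQO1 was called under all 18 alternatives tried, with a log2 fold change between 1.77 and 2.06. Its transcript has a GC content of 43.8%, a range in which the median gene was lower in EZA.

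TALDO1 (ENSG00000177156, chromosome 11, 747415 to 765012, plus strand), the transaldolase that moves a dihydroxyacetone unit between sugar phosphates, had 389.7, 459 and 522 CPM in EZA replicates 1 to 3, against 262, 266 and 259 CPM in DMSO replicates 1 to 3. All EZA libraries were above all DMSO libraries, and EZA replicate 3 was the highest. Its log2 fold change came to 0.80 ± 0.14 (SE), with an edgeR adjusted p of 0.0101. Leaving out DMSO replicate 1 or DMSO replicate 3 ended the call (edgeR adjusted p = 0.0712 in each case), at log2 fold changes of 0.80 and 0.79. Without EZA replicate 3 it was 0.70 ± 0.10 (edgeR adjusted p = 1.31e-06). It was 0.62 with the trend of GC content and transcript length removed, and 0.50 when EZA replicate 3 was left out as well.

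PGD (ENSG00000142657, chromosome 1, 10398592 to 10420511, plus strand), the 6-phosphogluconate dehydrogenase that makes NADPH while releasing carbon dioxide, had 387, 411 and 405 CPM in EZA replicates 1 to 3, against 282, 281 and 253 CPM in DMSO replicates 1 to 3. The groups did not overlap, and the EZA libraries lay close together. For PGD the log2 fold change came to 0.56 ± 0.12 (SE), with an edgeR adjusted p of 0.0177. Leaving out DMSO replicate 1, 2 or 3 ended the call, with edgeR adjusted p of 0.0872, 0.0624 and 0.132, while the log2 fold change stayed between 0.51 and 0.60. Non-overlapping groups were seen in 42.7% of all genes tested, and among the members in PGD, TALDO1 and NQO1.

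TKT (ENSG00000163931, chromosome 3, 53224712 to 53256052, minus strand), the transketolase that moves a glycolaldehyde unit and needs thiamine diphosphate, had 549, 585 and 238 CPM in EZA replicates 1 to 3, against 407, 445 and 432 CPM in DMSO replicates 1 to 3. EZA replicates 1 and 2 were above all DMSO libraries and EZA replicate 3 was below all of them. Over all 6 libraries TKT was at 0.10 ± 0.29 on the log2 scale (SE), with an edgeR adjusted p of 0.845. Without EZA replicate 3 it was 0.41 ± 0.10 and was called (edgeR adjusted p = 0.00160). On the log2 CPM scale TKT was 1.25 below the mean of EZA replicates 1 and 2 in EZA replicate 3, and 2.88% of the 7612 genes that averaged 20 CPM or more were as low or lower there. This is the library with few mitochondrial counts, whose part in the TKT value was not tested.

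IDH1 (ENSG00000138413, chromosome 2, 208236229 to 208266074, minus strand) had 108, 120.2 and 74.8 CPM in EZA replicates 1 to 3, against 121, 97.0 and 108 CPM in DMSO replicates 1 to 3. EZA replicates 1 and 2 lay inside the range of the DMSO libraries and EZA replicate 3 below it. IDH1 was at -0.11 ± 0.18 on the log2 scale (SE; edgeR adjusted p = 0.715), and at 0.07 ± 0.11 without EZA replicate 3 (adjusted p = 0.655). IDH1 was called higher, at 0.22, in 1 of 18 alternatives, the removal of the trend with GC content and transcript length together with leaving out EZA replicate 3 (adjusted p = 0.0111). Without EZA replicate 3 alone, 4 of the 5 tested members were higher, where 38.4% of 13787 genes tested were called, 19.1% as higher and 19.2% as lower.

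**Figure D1:**
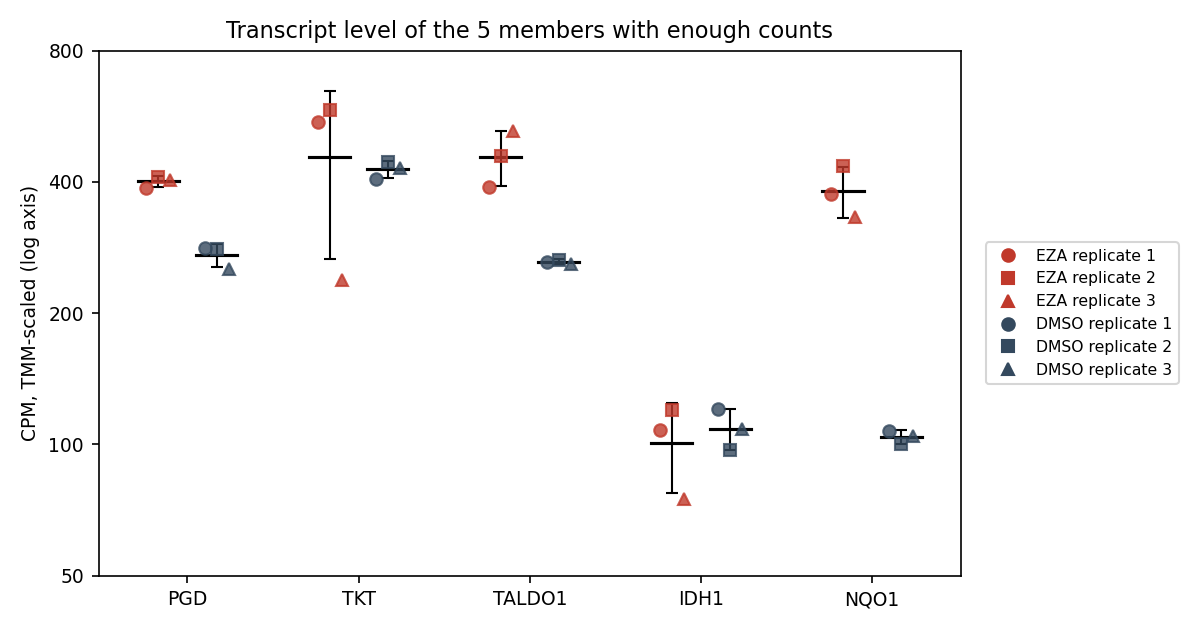
CPM after TMM scaling on a logarithmic axis for the 5 members tested, with 1 point for each library, group means as horizontal bars and 1 SD as whiskers (n = 3 each). The EZA libraries of PGD, TALDO1 and NQO1 lie above all DMSO libraries, while EZA replicate 3 lies below the DMSO libraries in TKT (238 CPM) and IDH1 (74.8 CPM).

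The other 4 members were at or near the limit of detection in both groups. ME1 (ENSG00000065833, chromosome 6, 83210402 to 83431051, minus strand) had 0 counts in all 6 libraries, which allows up to 0.0613 CPM of all counts in the EZA libraries and 0.0644 CPM in the DMSO libraries (3 counts over the group; this limit and the intervals here cover counting error only). AKR1C1 (ENSG00000187134, chromosome 10, 4963253 to 4983283, plus strand), a reductase of steroids and of lipid aldehydes, had 2, 2 and 4 counts in EZA replicates 1 to 3, against 0, 0 and 0 in DMSO replicates 1 to 3. Set against a floor of 3 counts over the DMSO group, and with its 8 EZA counts taken as exact, AKR1C1 was at least 2.54-fold higher per total count. With the counting error of both groups the exact 95% interval of the ratio starts lower, at 1.62.

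AKR1B1 (ENSG00000085662, chromosome 7, 134442356 to 134459284, minus strand), the aldose reductase of the polyol pathway, had 3, 5 and 2 counts in EZA replicates 1 to 3, against 0, 2 and 0 in DMSO replicates 1 to 3. The ratio per total count was 4.76, with an exact 95% counting interval of 1.01 to 44.7. The libraries of the groups met at 2 counts. AKR1B10 (ENSG00000198074, chromosome 7, 134527567 to 134541412, plus strand), which reduces retinal and other carbonyls, had 1, 3 and 2 counts in EZA replicates 1 to 3, against 2, 0 and 0 in DMSO replicates 1 to 3. Its ratio was 2.86, with an interval of 0.511 to 28.9, so that no difference was detectable at this depth. With no filter on low counts none of the 3 was called (edgeR adjusted p = 0.110 for AKR1C1, 0.397 for AKR1B1 and 0.589 for AKR1B10).

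**Figure D2:**
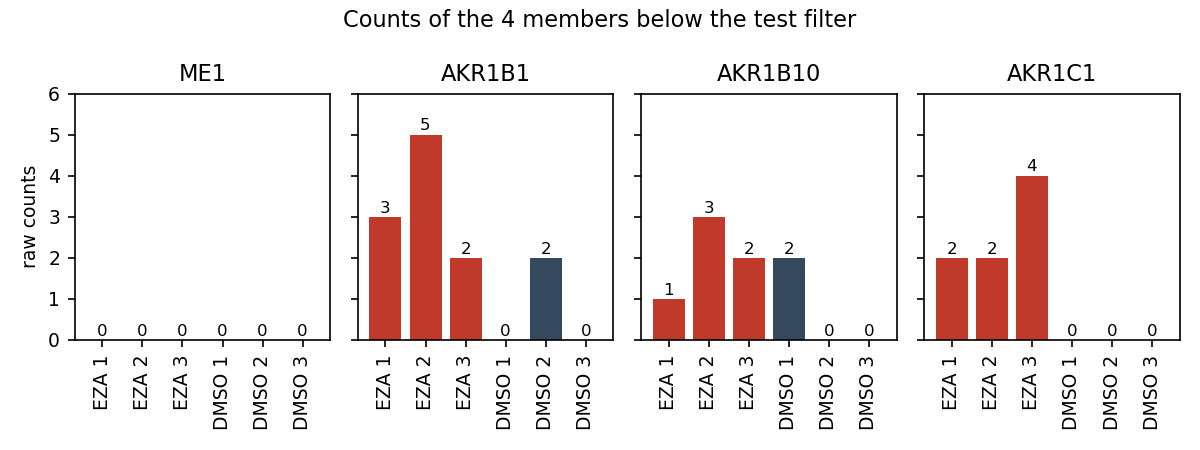
Raw counts of the 4 members below the filter on low counts, with a bar per library on a linear axis that starts at 0. ME1 is at 0 in all 6 libraries, AKR1C1 has counts in the EZA libraries alone, and the highest bar is 5 counts, AKR1B1 in EZA replicate 2.

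AKR1C1 and AKR1B10 have near-identical neighbours that can share reads. AKR1C2 had 2 counts in EZA and 0 in DMSO, AKR1C3 had 4 in EZA and 2 in DMSO, and AKR1C4 and AKR1B15 had 0 in both groups. Summed, AKR1C1 to AKR1C4 had 16 counts in all libraries, and AKR1B10 with AKR1B15 had 8, and neither sum passed the filter. The promoters of the low members differed in CpG content. In the RefSeq promoter window of 300 bases around the start, ME1 held 30 and AKR1B1 held 33 CpG dinucleotides, near the 35 of PGD, whereas AKR1C1 held 3 (median of all RefSeq promoters, 14).

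Among the other pentose phosphate pathway enzymes, 2 that belong to the oxidative branch, PGLS and H6PD, were higher in EZA. Of 11 such enzymes considered 9 were tested, and 2 were higher and 0 lower (edgeR; 0 lower also in DESeq2 and limma-voom, and 3 lower at an unadjusted p below 0.05). The median log2 fold change of the 9 was -0.0050, against -0.01 over all genes tested. Over all genes tested 9.89% were called higher and 7.82% lower. Without EZA replicate 3, 3 of the 9 were higher and 2 lower, where 19.1% of all genes were called higher and 19.2% lower. The median was 0.14 with the trend of GC content and length removed. PGLS, the lactonase that acts just before PGD, had 47.4, 55.7 and 62.3 CPM in EZA replicates 1 to 3, against 23.7, 25.9 and 23.1 CPM in DMSO replicates 1 to 3, which is 1.19 ± 0.15 on the log2 scale (SE), with an edgeR adjusted p of 0.00314. H6PD carries out the first steps of the oxidative branch in the endoplasmic reticulum. It had 37.7, 34.6 and 39.7 CPM in EZA, against 15.5, 14.6 and 15.4 CPM in DMSO. Its log2 fold change was 1.30 ± 0.13 (SE), with an edgeR adjusted p of 0.00108. In neither gene did the groups overlap, which held for 6 of the 9 tested genes of the list and 42.7% of all genes tested. Both had a larger log2 fold change than PGD or TALDO1 before any removal of the GC and length trend. With that trend removed, PGLS (0.59) was below TALDO1 (0.62). These differences between genes were not tested. RPIA and RPE, which interconvert the pentose phosphates, were at 0.15 ± 0.16 and -0.16 ± 0.14 and were not called; both were named after their values were seen. PGLS has a GC content of 65.9%. With the trend of GC content and length removed, its log2 fold change was 0.59 (edgeR adjusted p = 0.0185) and that of H6PD 1.17 (0.00299). With the replicate number as a block beside this removal, PGLS missed the threshold (edgeR adjusted p = 0.0619).

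**Figure D3:**
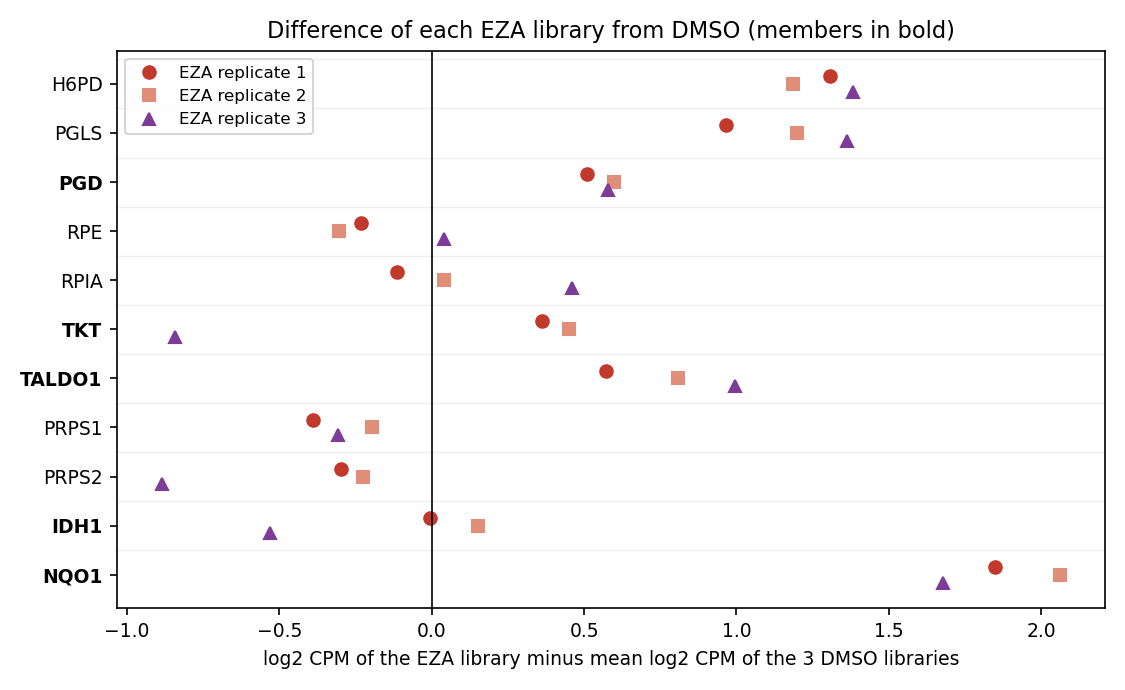
Points give the log2 CPM of each EZA library minus the mean log2 CPM of the 3 DMSO libraries, for pentose phosphate pathway enzymes, IDH1 and NQO1, with members in bold. NQO1 lies between 1.68 and 2.06 and PGD between 0.51 and 0.60, while TKT lies at 0.36 and 0.45 in EZA replicates 1 and 2 and at -0.84 in EZA replicate 3.

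Among genes that make NADPH or NADP by other routes, 9 of 12 were tested. Of these, 4 were higher and 1 lower (over all genes tested, 9.89% and 7.82%), with a median log2 fold change of 0.25. Without EZA replicate 3, 4 were higher and 2 lower (over all genes tested, 19.1% and 19.2%), and the median was 0.014. MTHFD2, the mitochondrial folate dehydrogenase that makes mainly NADH, averaged 436 ± 29.2 CPM in EZA and 172 ± 5.44 CPM in DMSO (SD, n = 3 each). It was called under all 18 alternatives. IDH2, the mitochondrial counterpart of IDH1, averaged 50.7 ± 2.60 CPM in EZA and 34.5 ± 3.04 CPM in DMSO, or 0.56 ± 0.13 on the log2 scale (SE), with an edgeR adjusted p of 0.0239. NADK, which makes NADP from NAD, and ME3, a mitochondrial malic enzyme, had log2 fold changes of 0.57 ± 0.14 and 0.64 ± 0.17, and MTHFD2L, a paralog of MTHFD2, was lower at -0.79 ± 0.21; ME3 was named after its values were seen. The calls of IDH2, NADK, ME3 and MTHFD2L were each lost without DMSO replicate 1, 2 or 3, those of IDH2 and ME3 also without EZA replicate 1 or 2, and that of MTHFD2L without EZA replicate 2 (edgeR adjusted p up to 0.170 with 1 library left out). With the trend of GC content and length removed, 2 genes of the list were higher and 0 lower. ME2, the mitochondrial malic enzyme that makes mainly NADH, averaged 136 ± 5.56 CPM in EZA and 148 ± 16.1 CPM in DMSO and was not called. NNT, the proton-driven transhydrogenase of the inner mitochondrial membrane, had 0 counts in all 6 libraries, like ME1; it was named after its values were seen.

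Of 18 other quinone and carbonyl reductases 17 were tested. In this list 6 were higher and 1 lower (over all genes tested, 9.89% and 7.82%), with a median log2 fold change of 0.20. Without EZA replicate 3, 9 were higher and 2 lower (over all genes tested, 19.1% and 19.2%), and the median was 0.32. NQO2, the paralog of NQO1, averaged 114 ± 17.6 CPM in EZA and 97.8 ± 2.41 CPM in DMSO (SD, n = 3 each), and its log2 fold change of 0.22 ± 0.14 (SE) did not pass (edgeR adjusted p = 0.298); without EZA replicate 3 it was called (0.00898). DCXR, a carbonyl reductase of xylulose, PTGR1, which reduces alkenals, CBR1, which reduces carbonyls and quinones, and AIFM2, which reduces coenzyme Q at membranes, had log2 fold changes of 1.07 ± 0.19, 0.80 ± 0.15, 0.64 ± 0.13 and 0.54 ± 0.11. CRYZ, zeta-crystallin, a quinone reductase, was lower at -0.52 ± 0.14, and overlaps TYW3 on the other strand, with 4402 counts beside its own 4779. CBR1 likewise overlaps SETD4 (1853 counts beside 7747) and AIFM2 overlaps MACROH2A2 (4569 beside 13560). Each of these 5 calls was lost without DMSO replicate 1 or DMSO replicate 3, all but that of DCXR also without DMSO replicate 2, and that of CRYZ without EZA replicate 1 or 2 too (edgeR adjusted p up to 0.227 over all alternatives). With the trend of GC content and length removed DCXR was at 0.60 and CRYZ at -0.26, and 4 of the 17 genes were higher and 0 lower.

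Of the other aldo-keto reductases 4 of 11 could be tested, and 2 were higher and 0 lower in edgeR, DESeq2 and limma-voom. At an unadjusted p below 0.05, 1 was lower in each. The median log2 fold change was 0.29. Over all genes tested edgeR called 9.89% higher and 7.82% lower. AKR1A1, the aldehyde reductase, averaged 157 ± 26.0 CPM in EZA and 108 ± 4.86 CPM in DMSO (SD, n = 3 each), and AKR7A2, the aflatoxin aldehyde reductase, 79.4 ± 5.57 CPM in EZA and 57.0 ± 2.56 CPM in DMSO. Their log2 fold changes were 0.53 ± 0.14 and 0.48 ± 0.12 (SE; edgeR adjusted p = 0.0360 and 0.0302). Both calls were lost without DMSO replicate 1, 2 or 3 or EZA replicate 2, and that of AKR7A2 also without EZA replicate 1. With the trend of GC content and length removed they were at 0.28 and 0.06, 0 genes of the list were higher and 1 was lower, and the median was -0.11 (0.032 when EZA replicate 3 was also left out). With library size alone 1 gene was called, since AKR1A1 missed the threshold.

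A further list held enzymes of the thioredoxin and glutathione systems, of glutathione synthesis and of heme breakdown. It also held UGDH, which belongs to none of these, was not called (0.07 ± 0.12) and was named after its values were seen. This list was drawn up to hold known NRF2 targets, and not all of its enzymes use NADPH themselves. Like the other lists it was chosen with earlier results of these data known. Its share of higher genes is therefore not independent support. Of its 11 genes, all tested, 8 were higher and 0 lower, where 9.89% of all genes tested were called higher. In DESeq2, and at an unadjusted p below 0.05, 9 were higher. The median log2 fold change of the list was 0.76. HMOX1, which breaks down heme, TXNRD1, which reduces thioredoxin, SRXN1, which repairs peroxiredoxins, and GCLM, a subunit of the enzyme that starts glutathione synthesis, had log2 fold changes of 2.76 ± 0.20, 2.18 ± 0.15, 1.73 ± 0.23 and 0.96 ± 0.14 and were called under all 18 alternatives; TXNRD1 holds the pseudogene RPL18AP3 on its own strand, with 11098 counts beside 189385. Of 8 enzymes that act on isocitrate, malate and related acids without NADPH, 0 were called in edgeR, DESeq2 or limma-voom, with 2 higher and 0 lower at an unadjusted p below 0.05 in each. IDH3A, of the NAD-dependent isocitrate dehydrogenase, averaged 69.4 ± 14.5 CPM in EZA and 56.9 ± 1.89 CPM in DMSO (SD, n = 3 each; edgeR adjusted p = 0.241). Without EZA replicate 3, 10 of the 11 genes of the antioxidant list were higher. So were 2 of the 8 enzymes without NADPH, where 19.1% of all genes tested were called higher. With the trend of GC content and length removed as well, 3 of the 8 were higher and 2 lower. In that setting 2768 of 13787 genes tested were called higher and 2502 lower. The difference between the lists was not tested.

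**Figure D4:**
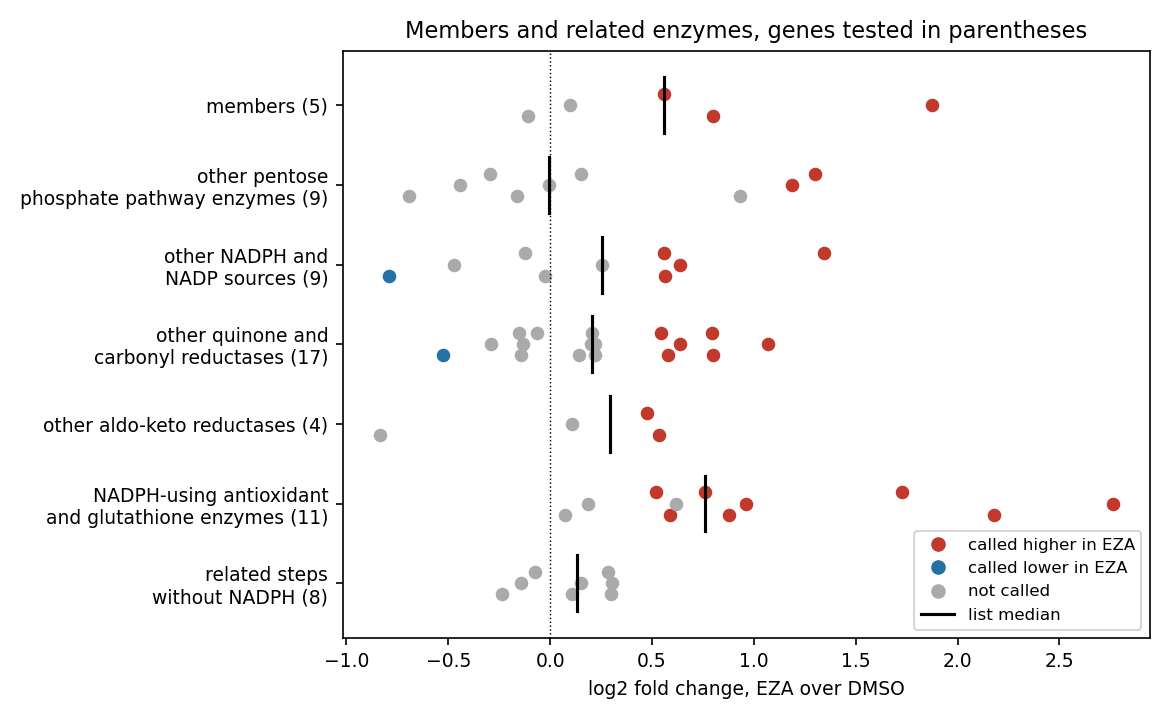
Each point is the log2 fold change, EZA over DMSO, of 1 gene tested, in rows by list (genes tested per list in parentheses); red and blue mark genes called higher and lower and the black bar is the list's median. The members spread from -0.11 (IDH1) to 1.87 (NQO1). The row of antioxidant and glutathione enzymes, labelled NADPH-using though not all of them use it, reaches 2.76 (HMOX1).

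As a description of likeness, each role group's mean standardised log2 CPM was correlated over the 6 libraries with 9257 other genes of at least 10 CPM; all points share the contrast and the same libraries. NQO1 was followed most closely by MTHFD2, CARS1, the cytosolic cysteinyl-tRNA synthetase, and PSAT1, a transaminase of serine synthesis, with Pearson r of 0.999, 0.998 and 0.998. These 3 had log2 fold changes of 1.34, 1.58 and 1.92. PGD, TKT and TALDO1 together were followed by FAM78A, RPL3, a ribosomal protein, and EIF1, a translation initiation factor (r of 0.996, 0.996 and 0.994). IDH1 was followed by MRPS10, of the mitochondrial ribosome, CHMP3, of the ESCRT machinery, and MED6, of Mediator (r of 0.995, 0.994 and 0.992). MRPS10, CHMP3 and MED6 had log2 fold changes of -0.10, -0.09 and -0.16 and, like IDH1, were not called. The 6 points include EZA replicate 3, where IDH1 was lowest.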

How the data were processed

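Messenger RNA was enriched with oligo(dT) beads and libraries were made without strand information, per the labels' protocols. HISAT2, featureCounts, DESeq2 and the build GRCh38 (hg38) are named in the submitters' processing notes; their versions and options, and the annotation, are in none of these sources. For each Ensembl gene the authors deposited raw counts and FPKM values. Counts were used for every test, and FPKM for levels across genes and, through the totals they imply, for an alternative scaling.

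Groups came from the sample titles. The replicates are called biological by the study, with nothing on separate cultures, and the p-values then measure only how far these samples spread, which may be technical. Symbols and positions came from GENCODE 44, which matched 58207 of 58735 rows, and promoters from RefSeq on GRCh38.p14, of which all 27305 used had the same letters in hg38. After filterByExpr and TMM scaling, a two-sided robust quasi-likelihood test in edgeR was run with no covariate, and p-values were adjusted over 13503 genes by Benjamini-Hochberg. The common biological coefficient of variation was 18.4%. Standard errors were derived from the F statistic. The test was checked on simulated data of 13335 genes. It recovered 85 of 100 2-fold and 100 of 100 4-fold changes, with 12 false calls. Unlike these data, the simulation had the same spread in all libraries, no GC trend and no library that stood apart. Replicates differed by more than counting noise (chi-square over its degrees of freedom, 14.2 to 126 in EZA and 5.07 to 13.1 in DMSO).

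Alternatives were limma-voom, DESeq2, other scalings and filters, a block on the replicate number, removal of the trend with GC content and length of the canonical transcript (lowess, span 0.3) and each library left out; FPKM totals, and trend removal without EZA replicate 3, were added after seeing the data. The members and lists were chosen with earlier results of these data known, and 1 gene of the pentose phosphate list is not reported here. Named were all members, a fixed set of related enzymes, and up to 4 called genes of each list with the smallest adjusted p and 1 called the other way; likeness used the 3 highest Pearson r. The software was Python 3.11.15 and R 4.3.3 with DESeq2 1.42.0, limma 3.58.1 and edgeR 4.0.16.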

Additional observations from a re-analysis of the deposited data

How the results depend on the processing

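NQO1 was called under all 18 alternatives, with an edgeR, DESeq2 or limma adjusted p of at most 0.00833. PGD kept its call in 14 and TALDO1 in 15. Leaving out 1 library gave 1 to 4 members called higher, 0 called lower, 1 past the study's threshold and 220 to 5289 genes called in all, against 3, 0, 1 and 2392. With the trend of GC content and length removed 1576 genes were called; with the trend removed without EZA replicate 3, 5270 genes and 5 members. With no filter on low counts 2 members passed the study's threshold, AKR1C1 being added. The log2 fold change of TKT, 0.10 with all libraries, was -0.014 in limma-voom, -0.15 with the trend removed and -0.12 to 0.41 with 1 library left out, below 0 without EZA replicate 1 or 2. That of IDH1, -0.11, was 0.054 with the trend removed, 0.22 when EZA replicate 3 was also left out, and -0.25 to 0.071 with 1 library left out, above 0 without EZA replicate 3. The causes of these shifts were not tested. The sums with near-identical genes gave no value. At 14070611 counts or more per library, the 4 members with up to 12 counts in all did not pass the filter, and with no filter the 3 that had counts were not called.

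Same-numbered deviations from the group mean correlated at 0.03, -0.17 and 0.03. EZA replicate 1 correlated best with its own number, and EZA replicates 2 and 3 with another number. With 3 libraries per group and EZA replicate 3 apart, these values cannot decide whether the replicate numbers paired the samples. With the replicate block 1970 genes and 3 members were called, TKT was at -0.0038, and CRYZ, AKR1A1 and AKR7A2 missed the threshold. Trend removal together with the replicate block left 622 genes and 1 member called, with TKT at -0.26 and IDH1 at 0.033; of the related enzymes named, PGLS, IDH2, NADK, ME3, MTHFD2L, DCXR, CBR1, AIFM2, CRYZ, AKR1A1 and AKR7A2 missed the threshold.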
